A study of Drosophila melanogaster with 6 samples.

Results

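The nuclear tRNAs that carry glycine, alanine, valine, isoleucine, proline and threonine are described here in Drosophila melanogaster S2R+ cells. They were chosen by gene name, as every row of the count tables named tRNA: followed by one of these amino acids, which gave 99 genes out of 297 nuclear tRNA genes and 23932 rows in all. By amino acid, the genes number 20 for Gly, 17 for Ala, 15 for Val, 12 for Ile, 17 for Pro and 18 for Thr. They carry 16 anticodons. The gene names sort them into 28 families whose last number alone differs between copies, and 17 of these families hold at least 2 copies and 88 of the genes. S2R+ is an established line of phagocytic cells that goes back to late embryos. Total RNA of these cells was depleted of ribosomal RNA and sequenced by TGIRT-seq, in which a thermostable group II intron reverse transcriptase copies structured RNA such as tRNA along with long RNA. The control group, dsLacZ, is 3 libraries of cells treated with double-stranded RNA against the bacterial lacZ gene, and the other group, labelled dsFib, is 3 libraries of cells treated to knock down Fibrillarin (Fib). All cells share 1 line and 1 medium, and the sources used here do not give the dose and duration of the treatments. No label ties a library to its own culture, so the p-values speak of the scatter among these 6 libraries, part of which may be technical.

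A tRNA pairs its anticodon with a codon of the messenger RNA and brings the matching amino acid to the ribosome, after a synthetase specific for that amino acid has loaded it. tRNA genes are short, exist in many copies and are transcribed by RNA polymerase III, after which both ends are trimmed, some introns are spliced out and many bases are modified. For Ala, Val, Ile, Pro and Thr the flies, like other eukaryotes, use an anticodon that begins with A in the gene and is edited to inosine in the tRNA, which lets 1 tRNA read several codons, whereas glycine is read by tRNAs without such an anticodon. Fibrillarin is the methyltransferase of the box C/D snoRNA particles, best known for methylating ribosomal RNA.

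The libraries held 11695250 to 15172052 counts. Fib itself stood at 213.9, 257.4 and 227.3 CPM (counts relative to the library total, scaled by TMM) in the dsLacZ libraries and at 1312, 954.9 and 994.3 CPM in the libraries labelled dsFib. Every library labelled dsFib was above every dsLacZ library, which goes against the label, and the log2 fold change was 2.22 (SE 0.15, edgeR, Benjamini-Hochberg adjusted p = 0.00103). Whether reads of the double-stranded RNA are part of this count was not tested, so the label could not be checked in this way, and directions below are those of the libraries labelled dsFib over dsLacZ. One control library stood apart: in dsLacZ replicate 2 the 99 genes took 4.50% of the counts, against 2.57% and 2.79% in dsLacZ replicates 1 and 3 and 3.78%, 3.45% and 3.76% in the libraries labelled dsFib replicates 1 to 3. The numbers of calls among the tRNAs, and the values of the tRNA genes named for their p, are therefore given with and without that library. Values of the synthetase, RNA polymerase III and processing genes are those with all libraries unless stated. The blood cell genes crq, Pxn, srp and Hml were present at 3.36 CPM or more in every library, while the blood cell genes NimC1, eater and Sr-CI were at most 1.15 CPM and He was at 0. The S2R+ receptor genes fz and fz2 were at 10.9 CPM or more, and Mhc, Fbp1, Lsp2, vas, nos and tj of other tissues were at most 1.28 CPM. The neuronal gene elav was at 25.4 to 30.04 CPM in every library.

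Levels ranged widely among the anticodons. They are compared here in the deposited TPM, a level relative to gene length and library total, summed over the copies of an anticodon; the ratio of CPM to TPM was the same for all members within a library, so length plays no part in the order. Ile-AAT was the highest, at 18310, 27090 and 19490 TPM in the dsLacZ libraries and 26130, 25590 and 24930 TPM in the libraries labelled dsFib. It was above all others in each of the 6 libraries. Gly-TCC came next with a mean of 15760 TPM over the 6 libraries, followed by Thr-AGT with 13830 TPM and Pro-CGG with 8414 TPM. Gly-TCC exceeded Thr-AGT in 3 of 3 dsLacZ libraries (means 15760 and 11410 TPM) and in 1 of 3 labelled dsFib (15760 and 16250 TPM), so the order of these neighbours was not the same in both groups. Val-CAC averaged 4794 TPM and Pro-AGG 3771 TPM, in that order in 6 of 6 libraries. Ile-TAT, Pro-TGG, Thr-TGT, Val-TAC, Ala-TGC, Thr-CGT and Gly-GCC lay close together between 3152 and 2473 TPM, and neighbours in that order kept it in 3 to 5 of 6 libraries. Among these neighbours, Thr-TGT exceeded Val-TAC in 0 of 3 dsLacZ libraries and in 3 of 3 labelled dsFib. Ala-AGC at 1300 TPM and Val-AAC at 1279 TPM were not in the same order in both groups, with Val-AAC higher in 3 of 3 dsLacZ libraries and Ala-AGC in 2 of 3 labelled dsFib, and Ala-CGC was the lowest at 337.1 TPM, below all others in every library.

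**Figure D1:**
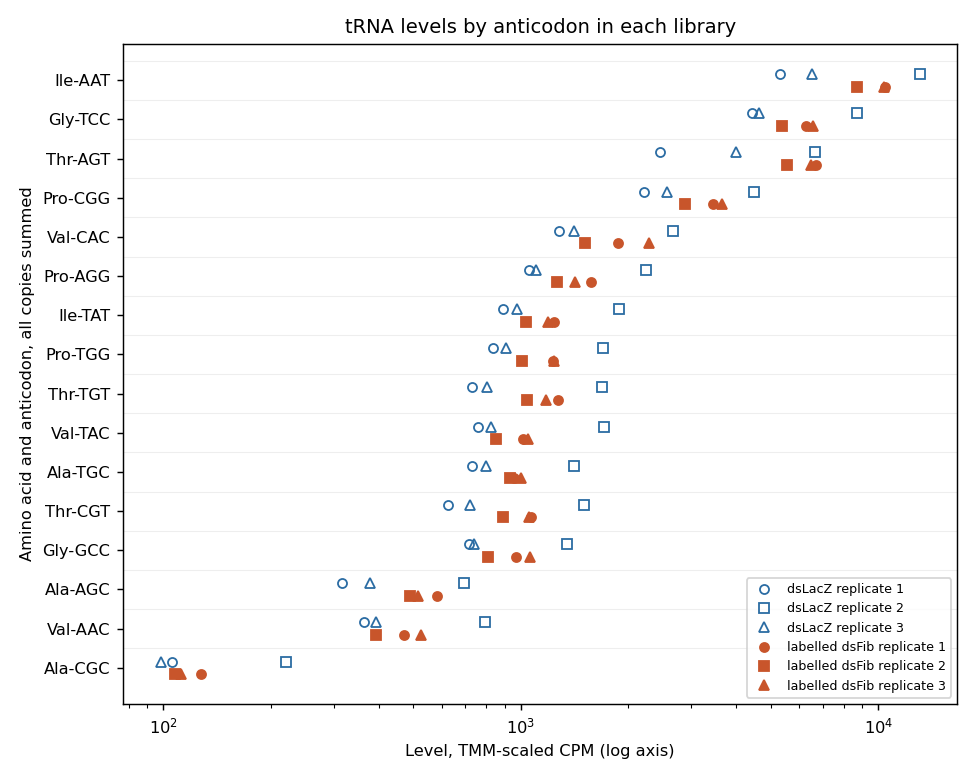
Level of each anticodon in each of the 6 libraries, in TMM-scaled CPM on a log axis, with all gene copies summed and the anticodons ordered by their mean TPM. Open blue symbols are dsLacZ libraries and filled orange symbols are libraries labelled dsFib; the open square, dsLacZ replicate 2, is the highest library for 15 of the 16 anticodons.

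The number of gene copies ordered these levels poorly. Gly-GCC has the most copies, 14, and reached a mean of 2473 TPM or 176.6 TPM per copy, whereas Gly-TCC has 6 copies and reached 2627 TPM per copy. Within Gly-GCC, the single gene of tRNA:Gly-GCC-2 averaged 713.3 CPM in dsLacZ and the 13 copies of tRNA:Gly-GCC-1 together 219.9 CPM. Ala-AGC has 12 copies at 108.4 TPM per copy, the lowest figure among the 16. Over the 16 anticodons, the correlation between the copy number and the log2 of the mean TPM was 0.235 (Pearson) and 0.191 (Spearman), given as a description, since the points come from the same libraries. Within an amino acid a single isoacceptor, that is 1 of the tRNAs with different anticodons for the same amino acid, held most of the counts: Gly-TCC held 86.3% ± 0.27 (SD, n = 3) of the Gly counts in dsLacZ, Ile-AAT 86.7% ± 0.89 of the Ile counts, Thr-AGT 68.1% ± 4.0 of the Thr counts and Ala-TGC 62.2% ± 1.4 of the Ala counts. Val-CAC held 52.8% ± 1.1 of the Val counts and Pro-CGG 54.4% ± 1.5 of the Pro counts. By these counts, the anticodon beginning with A was the major one for Ile and Thr and a minor one for Ala, Val and Pro. How the counter treated reads shared by copies is not given, so its effect on these levels and shares was not tested.

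**Figure D2:**
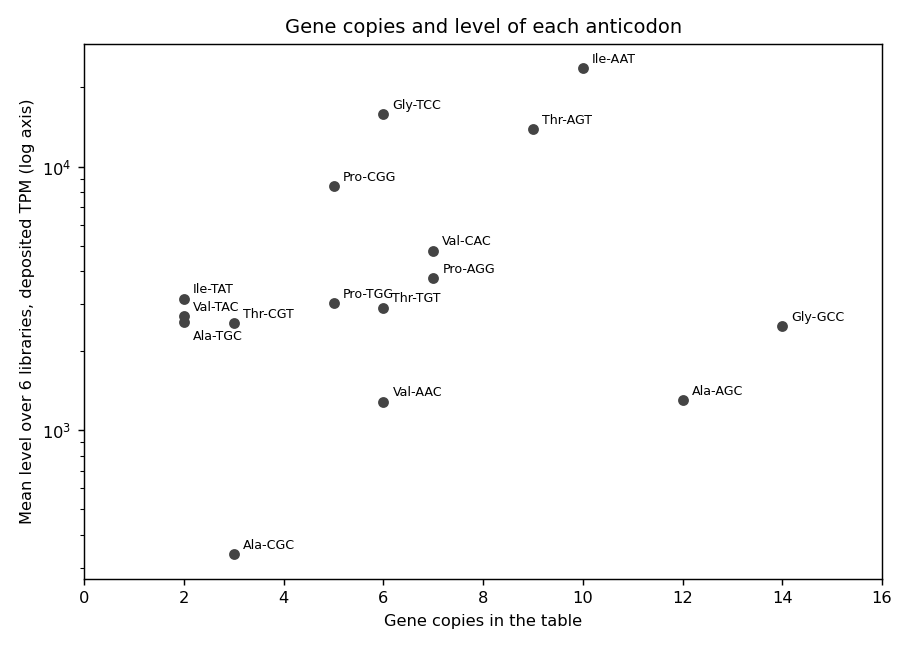
Mean deposited TPM of each anticodon over the 6 libraries (log axis) against its number of gene copies, 1 point per anticodon. Ile-AAT with 10 copies is the highest, while Gly-GCC with 14 and Ala-AGC with 12 copies lie among the lower points.

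The genes are spread over the genome (build dm6): 39 lie on chromosome 3R, 30 on 2R, 13 each on 2L and 3L and 4 on X. Another nuclear tRNA gene lies within 5 kb of 72 of them. They are 71 to 75 bases long, apart from tRNA:Ile-TAT-1-1 (3L, 769503 to 769600, plus strand) and tRNA:Ile-TAT-1-2 (3L, 770363 to 770462, plus strand), which have 2 exons and span 98 and 100 bases. The annotation places 41 genes inside a protein-coding gene, 15 on its strand and 26 on the opposite one, and 6 of the 9 copies of tRNA:Ile-AAT-1 lie in introns of ATP8A. Those in a protein-coding gene had a median log2 fold change of 0.01 over 40 tested and those outside any other gene -0.04 over 58 (labelled dsFib over dsLacZ, all in the edgeR fit); without dsLacZ replicate 2 the medians were 0.42 and 0.34. The 2 genes named as pseudogenes, tRNA:Ile-AAT-2-1Psi and tRNA:Thr-AGT-3-1Psi, were low, at 10.8 ± 2.8 and 2.24 ± 1.58 CPM in dsLacZ (SD, n = 3).

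At the level of whole anticodons, none of the 16 passed the test between the groups. In this table, in which all nuclear tRNAs were summed by anticodon, edgeR's quasi-likelihood test called 157 of 8060 features (1.95%) at a Benjamini-Hochberg adjusted p under 0.05. None of the 16 had an unadjusted p under 0.05, against 16.6% of all features. DESeq2, which called 4.39% of all features, and limma-voom, which called 1.71%, called 0 of the 16. The 16 log2 fold changes had a median of 0.03, with 10 above 0, beside a median of -0.01 over all features, and they ran from -0.28 for Ala-CGC to 0.52 for Thr-AGT. In TMM-scaled CPM the groups overlapped for all 16, while they did not overlap for 23.5% of all features. dsLacZ replicate 2 was the highest dsLacZ library for each of the 16. In bulk RNA, more tRNA per cell and more cells rich in tRNA cannot be told apart.

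Threonine had the anticodon with the largest fold change. Thr-AGT stood at 2455, 6648 and 3994 CPM in dsLacZ replicates 1, 2 and 3 and at 6708, 5566 and 6477 CPM in those labelled dsFib. The last were all above dsLacZ replicates 1 and 3, and dsLacZ replicate 2 lay among them. In the deposited TPM, Thr-AGT was at 8457, 13820 and 11960 in dsLacZ and at 16860, 16310 and 15590 in those labelled dsFib, without overlap. The place of dsLacZ replicate 2 thus depended on the scale. The log2 fold change was 0.52 (SE 0.29, edgeR, adjusted p = 0.411), with an interval of 2 SE from -0.07 to 1.11. With no filter on low counts, edgeR called it (adjusted p = 0.0061). Thr-TGT stood at 731.1, 1691 and 805.7 CPM against 1268, 1038 and 1173 CPM (log2 fold change 0.11, SE 0.27). Thr-CGT stood at 625.5, 1499 and 720 CPM against 1066, 893 and 1055 CPM (0.08, SE 0.28). For both, the libraries labelled dsFib lay between dsLacZ replicate 2 and the other dsLacZ libraries.

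Ile-AAT was highest in dsLacZ replicate 2, with 5314, 13030 and 6508 CPM in dsLacZ and at 10400, 8734 and 10360 CPM in those labelled dsFib, and had a log2 fold change of 0.25 (SE 0.29, adjusted p = 0.729, edgeR with Benjamini-Hochberg adjustment). Ile-TAT, whose genes carry the introns, had 889.4, 1883 and 975.4 CPM against 1240, 1036 and 1188 CPM and a log2 fold change of -0.11 (SE 0.25). The isoleucine anticodons thus lay on opposite sides of 0, each within 1 SE of it. Among the alanine tRNAs, Ala-AGC had a log2 fold change of 0.20 (SE 0.25), Ala-TGC -0.02 (SE 0.22) and Ala-CGC -0.28 (SE 0.26). Ala-CGC was at 105.8, 219.7 and 98.4 CPM in dsLacZ and at 127.5, 108 and 112.3 CPM in those labelled dsFib, so that it too was highest in dsLacZ replicate 2. Among the valine tRNAs, Val-CAC had a log2 fold change of 0.08 (SE 0.27), Val-AAC -0.16 (SE 0.26) and Val-TAC -0.17 (SE 0.27). The proline tRNAs had 0.10 (SE 0.24) for Pro-CGG, 0.02 (SE 0.24) for Pro-TGG and -0.05 (SE 0.26) for Pro-AGG, and the glycine tRNAs 0.03 (SE 0.25) for Gly-TCC and 0.02 (SE 0.23) for Gly-GCC. None of the 16 intervals of 2 SE left out 0, and with SEs between 0.22 and 0.29 these libraries could not tell a small change of an anticodon from none.

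Without dsLacZ replicate 2, 5 anticodons passed the test, all higher in the libraries labelled dsFib. In that fit edgeR called 3.28% of all features. Thr-AGT was 1.94-fold higher (log2 0.95, SE 0.18, adjusted p = 0.0155), Ile-AAT 1.66-fold (log2 0.73, SE 0.13, adjusted p = 0.0144) and Ala-AGC 1.53-fold (log2 0.61, SE 0.11, adjusted p = 0.0155), all by edgeR with Benjamini-Hochberg adjustment. Thr-TGT was 1.51-fold higher (log2 0.59, SE 0.11, adjusted p = 0.0159) and Thr-CGT 1.49-fold (log2 0.58, SE 0.11, adjusted p = 0.019). All 3 threonine anticodons were thus among the 5. All 16 were above 0, with a median of 0.41, and the other nuclear tRNAs moved with them: their 190 tested genes had a median of 0.11 with all libraries and 0.52 without this one. Leaving out dsLacZ replicate 1 instead put 14 of the 16 below 0 and leaving out dsLacZ replicate 3 put 13 below 0, with none passing.

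**Figure D3:**
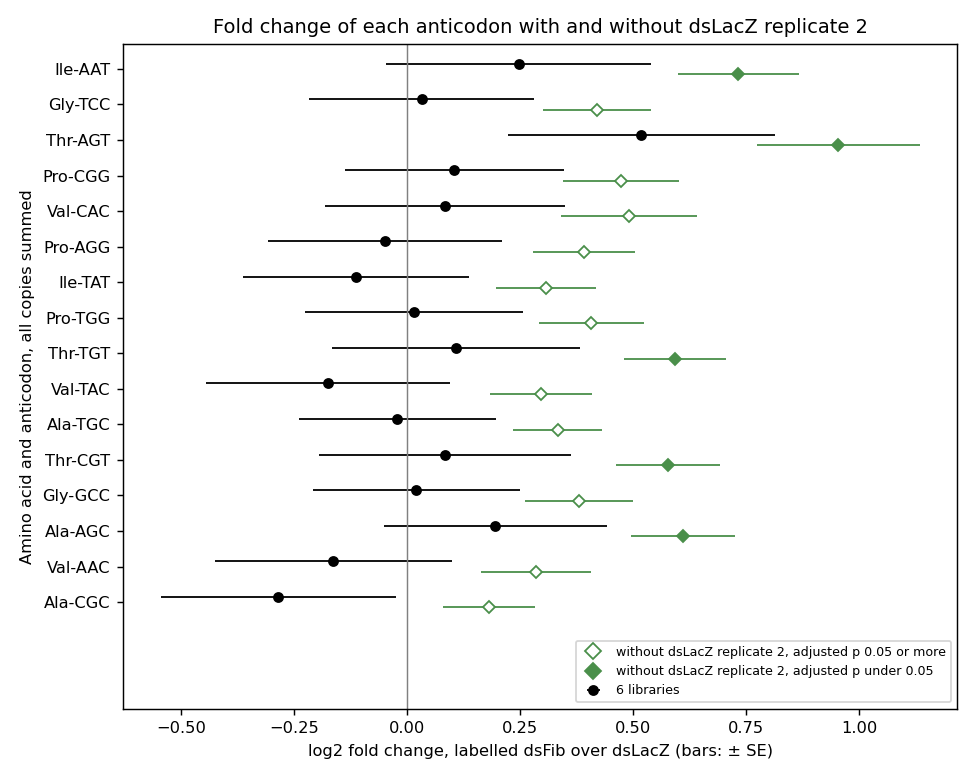
log2 fold change of each anticodon, libraries labelled dsFib over dsLacZ, with bars of 1 SE from edgeR. Black circles use all 6 libraries and all lie within 2 SE of 0; green diamonds leave out dsLacZ replicate 2 and all lie above 0, filled for the 5 with an adjusted p under 0.05.

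Shares within nuclear tRNA do not depend on how the libraries are scaled. Of the nuclear tRNA counts, the 99 genes held 23.9%, 24.6% and 25.2% in the dsLacZ libraries and 25.3%, 25.8% and 24.6% in those labelled dsFib, in the order of the replicates. The groups overlapped, and the difference of 0.667 percentage points had a two-sided exact permutation p of 0.2, where 3 libraries against 3 allow no p below 0.1. The shares of 4 of the 6 amino acids did not overlap between the groups, against 27.3% of the 22 amino acid classes of all nuclear tRNAs. Thr was at 3.98%, 4.78% and 5.19% of nuclear tRNA counts in dsLacZ and at 5.84%, 5.88% and 5.41% in the libraries labelled dsFib, higher in all 3 of the latter. Gly went the other way, from 5.11% ± 0.25 to 4.75% ± 0.08, as did Val, from 2.49% ± 0.02 to 2.24% ± 0.13, and Pro, from 4.22% ± 0.12 to 3.99% ± 0.07 (SD, n = 3 each). Each of the 4 differences had the smallest exact permutation p the design allows, 0.1, or 0.15 after Benjamini-Hochberg adjustment over the 6, so none passed a threshold of 0.05. Ile (6.92% ± 0.39 and 7.45% ± 0.25) and Ala (1.18% ± 0.04 and 1.10% ± 0.10) overlapped between the groups.

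The proportions of the isoacceptors within an amino acid were set side by side in the same way. For 11 of the 16 anticodons the share of the amino acid's counts did not overlap, 4 higher and 7 lower in the libraries labelled dsFib, against 54.3% of the 35 anticodons of all nuclear tRNAs that have a partner. Shares of 1 amino acid sum to 100%, so a higher share of one requires a lower share of another. Thr-AGT held 64.4%, 67.6% and 72.4% of the Thr counts in dsLacZ and 74.2%, 74.2% and 74.4% in the libraries labelled dsFib. The latter lay close together and above all dsLacZ libraries, with dsLacZ replicate 3 nearest to them. The difference of 6.16 percentage points was 5.89 without dsLacZ replicate 2 and 4.31 without dsLacZ replicate 1. Thr-TGT went from 17.0% ± 2.3 to 13.8% ± 0.28 and Thr-CGT from 14.9% ± 1.7 to 11.9% ± 0.17 of the Thr counts (SD, n = 3 each).

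Ile-AAT held 85.7%, 87.4% and 87.0% of the Ile counts in dsLacZ and 89.3%, 89.4% and 89.7% in the libraries labelled dsFib, so that Ile-TAT had the rest, 13.3% ± 0.89 against 10.5% ± 0.20. Among the Ala tRNAs, Ala-AGC was at 27.4%, 29.9% and 29.6% against 35.0%, 31.9% and 31.6%, higher in every library labelled dsFib. Ala-CGC was lower there, 8.79% ± 0.95 against 7.20% ± 0.40, and Ala-TGC overlapped between the groups. Among the Val tRNAs, Val-CAC had the higher share in the libraries labelled dsFib, 56.6% ± 2.3 against 52.8% ± 1.1, and Val-AAC, whose anticodon begins with A, the lower one, 14.0% ± 0.33 against 15.2% ± 0.19. Val-TAC was lower as well, 29.4% ± 2.0 against 32.0% ± 0.92 (SD, n = 3 each). The Pro isoacceptors moved little: Pro-TGG was at 20.1% ± 0.22 and 19.6% ± 0.08 without overlap, and Pro-AGG and Pro-CGG overlapped. The 2 Gly isoacceptors overlapped too, with Gly-TCC at 86.3% ± 0.27 and 86.5% ± 0.39. Each share without overlap had an exact permutation p of 0.1 and a Benjamini-Hochberg adjusted p of 0.145 over the 16. The 95% Wilson intervals of a share in 1 library, which cover counting error only, reached at most 0.75 points to either side over the 16 anticodons.

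**Figure D4:**
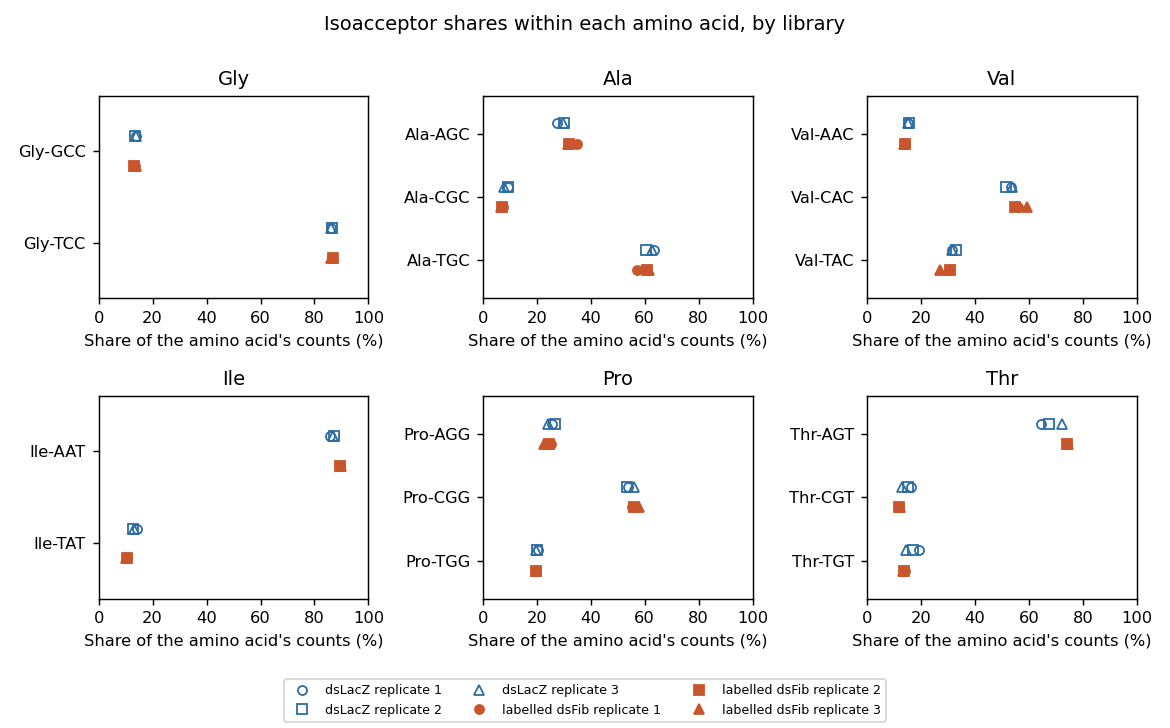
Share of each anticodon among the counts of its amino acid, in percent, 1 panel per amino acid and 1 symbol per library. The libraries labelled dsFib (filled) lie to the right of all dsLacZ libraries (open) for Thr-AGT, Ile-AAT, Ala-AGC and Val-CAC, and the Gly symbols coincide.

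Against all nuclear tRNA counts in place of the amino acid's own, the shares of 9 of the 16 anticodons did not overlap, 2 higher and 7 lower, where 37.8% of the 45 anticodons of all nuclear tRNAs did not overlap. The 2 higher ones were Thr-AGT, from 3.18% ± 0.60 to 4.24% ± 0.19, and Ile-AAT, from 5.999% ± 0.40 to 6.66% ± 0.21 (SD, n = 3 each). The 7 lower ones were Ala-CGC, Gly-TCC, Ile-TAT, Pro-AGG, Pro-TGG, Val-AAC and Val-TAC. Val-TAC for example went from 0.798% ± 0.028 to 0.657% ± 0.008. Thr-TGT and Thr-CGT hardly differed on this scale, at 0.781% ± 0.035 against 0.787% ± 0.051 and at 0.686% ± 0.038 against 0.681% ± 0.023. Their lower share among the Thr tRNAs thus stood beside nearly equal shares of nuclear tRNA as a whole. Each share without overlap again had an exact permutation p of 0.1, and a Benjamini-Hochberg adjusted p of 0.178 over the 16.

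Summed by family, that is over copies whose names share the first number, 0 of 28 passed the edgeR test at a Benjamini-Hochberg adjusted p under 0.05, where 1.83% of the 8103 features of that table passed. None had an unadjusted p under 0.05, against 16.4% of all. DESeq2 and limma-voom also called 0 of the 28, where they called 4.32% and 1.58% of all. The main Thr-AGT family, tRNA:Thr-AGT-1 with 7 copies, had the highest log2 fold change, 0.55 (SE 0.29, adjusted p = 0.385), at 2166, 5708 and 3559 CPM in dsLacZ and at 5975, 4975 and 5771 CPM in those labelled dsFib. The low-level Gly-GCC family with 13 copies, tRNA:Gly-GCC-1, lay on the other side, at -0.34 (SE 0.21, adjusted p = 0.461), with 178.6, 312.7 and 168.6 CPM against 188.3, 161 and 172.8 CPM. The single gene of the second Gly-GCC family, tRNA:Gly-GCC-2-1, held most of that anticodon's counts and was at 0.12 (SE 0.24). Without dsLacZ replicate 2, 7 of the 28 families passed, where 3.51% of all features did, and all 28 were above 0. The 7, each higher in the libraries labelled dsFib, were tRNA:Ala-AGC-2, tRNA:Ile-AAT-1, tRNA:Pro-CGG-1, tRNA:Thr-AGT-1, tRNA:Thr-AGT-2, tRNA:Thr-CGT-1 and tRNA:Thr-TGT-2.

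Gene by gene, 98 of the 99 passed the filter on low counts, the exception being tRNA:Ala-AGC-2-5 with between 2.22 and 8.87 counts per library. None of the 98 passed edgeR's test at a Benjamini-Hochberg adjusted p under 0.05, where 0.903% of the 8302 genes tested did. At an unadjusted p under 0.05, 6 were higher and 6 lower in the libraries labelled dsFib, where 7.67% of all genes were higher and 8.26% lower. The groups did not overlap for 9 of the 98, against 23.2% of all genes tested. DESeq2 called 1 lower, where it called 3.85% of all genes, and limma-voom called 0, where it called 0.807% of all. Because copies share reads, and nearly every copy had a fractional count, a value per copy depends on how the counter divided them.

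The gene DESeq2 called was tRNA:Thr-TGT-2-2 (2R, 11399770 to 11399841, minus strand, in no other gene). It stood at 57.7, 108.3 and 62.6 CPM in dsLacZ and at 34.2, 38.7 and 39.5 CPM in the libraries labelled dsFib, without overlap. The log2 fold change was -1.02 (SE 0.22, edgeR adjusted p = 0.077; DESeq2 adjusted p = 0.002). Over the alternatives run in edgeR and limma-voom its adjusted p went from 7.42e-04 to 0.333, and it passed without dsLacZ replicate 1, without dsLacZ replicate 2 and with no filter on low counts. Its copy tRNA:Thr-TGT-2-4 (2R, 11405232 to 11405303, minus strand) lay on the other side, at 328.8, 824.6 and 391.7 CPM against 778.9, 634.6 and 771.5 CPM (log2 fold change 0.50, SE 0.31, edgeR adjusted p = 0.466). Without dsLacZ replicate 2 it passed, at 1.02 (SE 0.125, edgeR adjusted p = 0.00326). The other lower genes with the smallest p were tRNA:Gly-GCC-1-12 (log2 fold change -0.78), tRNA:Gly-GCC-1-2 (-0.63), tRNA:Pro-AGG-1-2 (-0.79) and tRNA:Ala-CGC-1-2 (-0.66), with edgeR adjusted p between 0.175 and 0.266. Without dsLacZ replicate 2 their log2 fold changes were -0.42, -0.35, -0.34 and -0.26 in that order, and none passed. With all libraries the 4 were without overlap between the groups; tRNA:Pro-AGG-1-2 for example stood at 211.6, 426.5 and 196.5 CPM in dsLacZ and at 146.2, 182.8 and 152.8 CPM in those labelled dsFib.

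Of the 5 genes with the smallest p on the higher side, 3 were copies of tRNA:Thr-AGT-1. tRNA:Thr-AGT-1-5 stood at 95.02, 254.8 and 229.3 CPM in dsLacZ and at 322.9, 338.9 and 359.8 CPM in the libraries labelled dsFib (log2 fold change 0.82, SE 0.30, edgeR adjusted p = 0.244). tRNA:Thr-AGT-1-3 had a log2 fold change of 0.87 (SE 0.35, edgeR adjusted p = 0.27) and tRNA:Thr-AGT-1-1 one of 0.76 (SE 0.33, edgeR adjusted p = 0.299). All 7 copies of this family were above 0, from 0.31 to 0.87. Since copies share reads, these 7 values are not independent of each other. Of the copies, 5 lie on 3R, 1 on 2L and 1 on 2R, with tRNA:Thr-AGT-1-1 in an intron of tai and tRNA:Thr-AGT-1-3 outside any other gene. The other 2 were tRNA:Ile-AAT-1-3, in an intron of ATP8A, at 0.61 (SE 0.25, edgeR adjusted p = 0.283) and tRNA:Pro-TGG-1-5, in an intron of qin on the opposite strand, at 0.59 (SE 0.25, edgeR adjusted p = 0.298). Without dsLacZ replicate 2, tRNA:Thr-AGT-1-3, tRNA:Thr-AGT-1-1, tRNA:Ile-AAT-1-3 and tRNA:Pro-TGG-1-5 passed, at 1.29, 1.24, 0.90 and 0.96, and tRNA:Thr-AGT-1-5 did not, at 1.07 (edgeR adjusted p = 0.0628). By amino acid, 10 of 12 Ile genes and 11 of 18 Thr genes had a log2 fold change above 0, against 7 of 20 for Gly, 6 of 16 for Ala, 7 of 15 for Val and 5 of 17 for Pro. These counts too include copies that share reads. They rest on dsLacZ replicate 2: without it they were 12 of 12 for Ile, 16 of 18 for Thr, 12 of 20 for Gly, 15 of 16 for Ala, 15 of 15 for Val and 12 of 17 for Pro.

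Without dsLacZ replicate 2, 27 of the 98 genes were called higher and 1 lower by edgeR, where 2.59% of all genes were called higher and 1.04% lower. Of the 190 other nuclear tRNA genes tested, 56 (29.5%) were called higher in that fit, beside 27.6% of the 98. The lower one was again tRNA:Thr-TGT-2-2 (log2 fold change -0.68, SE 0.11, adjusted p = 0.0123). Of the 27, 6 were Thr-AGT genes, 6 Ile-AAT genes and 3 Ala-AGC genes, and the others were spread over 10 anticodons with 1 or 2 each. The smallest adjusted p was that of tRNA:Val-CAC-2-4 (log2 fold change 1.13, SE 0.11, adjusted p = 5.27e-04). The median of the 98 was -0.02 with all libraries and 0.35 without this one, beside -0.01 over all genes in either fit.

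The most abundant copy of each anticodon is part of that anticodon's sum. tRNA:Ile-AAT-1-2 (2R, 8158455 to 8158528, plus strand) was the highest single gene, at 3572, 8575 and 3983 CPM in dsLacZ and at 6294, 5424 and 6224 CPM in those labelled dsFib (log2 fold change 0.15, SE 0.31), and passed without dsLacZ replicate 2 (0.66, SE 0.12, edgeR adjusted p = 0.0202). tRNA:Pro-CGG-2-2 averaged 2354 CPM over the 6 libraries, tRNA:Gly-TCC-2-2 1418 CPM and tRNA:Thr-AGT-1-6 1077 CPM. Their log2 fold changes were 0.16 (SE 0.25), -0.08 (SE 0.24) and 0.54 (SE 0.30) in that order, and 0.51, 0.29 and 0.96 without dsLacZ replicate 2. tRNA:Ile-TAT-1-1 averaged 899.9 CPM, tRNA:Gly-GCC-2-1 742.2 CPM and tRNA:Pro-AGG-1-3 710.9 CPM. The last had a log2 fold change of 0.41, against -0.05 for Pro-AGG as a whole, and 0.89 without dsLacZ replicate 2 (SE 0.15, edgeR adjusted p = 0.0138). Those of Thr-CGT, Thr-TGT, Val-TAC, Val-CAC and Ala-TGC (tRNA:Thr-CGT-1-2, tRNA:Thr-TGT-2-4, tRNA:Val-TAC-1-2, tRNA:Val-CAC-2-6 and tRNA:Ala-TGC-2-1) averaged between 564.3 and 657.9 CPM. tRNA:Pro-TGG-1-2, tRNA:Val-AAC-2-2, tRNA:Ala-AGC-2-1 and tRNA:Ala-CGC-1-1 averaged 333.7, 255.3, 205.3 and 55.7 CPM.

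Copies of 1 family were counted at very unequal levels. In tRNA:Ala-AGC-2, the highest of 11 copies, tRNA:Ala-AGC-2-1, had 485 times the mean CPM of the lowest, tRNA:Ala-AGC-2-5, which failed the filter, and 76.8 times that of the lowest of the 10 tested. In tRNA:Ile-AAT-1 the highest of 9 had 346 times that of the lowest. The ratio was 102 in tRNA:Pro-CGG-2, where tRNA:Pro-CGG-2-2 (3L, 17339909 to 17339980, minus strand) alone held 93.0% ± 0.66 of the family's counts in dsLacZ. It was 4.04 among the 7 copies of tRNA:Thr-AGT-1, 1.37 between the 2 copies of tRNA:Val-TAC-1 and 1.05 between the 2 copies of tRNA:Gly-TCC-2. By the naming scheme, copies of 1 family share the sequence of the finished tRNA, which was not checked, since no genome sequence was used here. How far the unequal levels come from the way the counter divided shared reads was not tested.

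The share of each copy in its family was compared between the groups. For 34 of the 88 copies in families of at least 2, the share of the family's counts did not overlap between the groups, 15 higher and 19 lower in the libraries labelled dsFib, in 14 of the 17 families. This is 38.6%, near the 34.1% over all 252 nuclear tRNA copies and the 31.7% over the 164 copies of the other amino acids. Shares of 1 family sum to 100%, so these counts are linked. A test of each copy against its family with edgeR's diffSpliceDGE called 0 of 87 at a Benjamini-Hochberg adjusted p under 0.05, the smallest being 0.656 for tRNA:Thr-TGT-2-2, and 1 had an unadjusted p under 0.05, where 3.28% of all 244 tested did. That test called 0 (0%) of all 244, and without dsLacZ replicate 2 it called 4 of the 87 and 6.15% of all. The shares per copy were added after the levels had been seen.

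The largest difference was that of tRNA:Pro-AGG-1-3 (2L, 14599396 to 14599467, minus strand), which held 37.0%, 43.0% and 43.8% of its family in dsLacZ and 59.3%, 52.5% and 59.6% in the libraries labelled dsFib. It lies in an exon of osp on the same strand, and osp was at 3.62 to 7.25 CPM in all libraries. Whether reads of osp are part of this copy's count was not tested. Its neighbour tRNA:Pro-AGG-1-2 (2L, 14598859 to 14598930, plus strand) lay on the other side, at 19.9%, 19.2% and 17.8% against 9.34%, 14.5% and 10.8%. The family as a whole had a log2 fold change of -0.05 (SE 0.26). With all libraries neither copy passed the edgeR test or diffSpliceDGE, nor did the sum of the family. tRNA:Thr-TGT-2-4 held 49.1% ± 2.3 of its family in dsLacZ and 64.8% ± 2.8 in those labelled dsFib (SD, n = 3), without overlap. The shares of tRNA:Thr-TGT-2-2 (7.61% ± 0.82 and 3.37% ± 0.54) and tRNA:Thr-TGT-2-3 (20.1% ± 2.4 and 13.7% ± 0.30) were lower there.

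tRNA:Thr-CGT-1-2 (3R, 20891122 to 20891193, plus strand) held 55.9%, 64.9% and 61.9% against 73.2%, 72.0% and 72.2%, and its neighbour on the same strand, tRNA:Thr-CGT-1-3, 31.9% ± 3.3 against 22.0% ± 0.58. In tRNA:Gly-GCC-1, tRNA:Gly-GCC-1-7 went from 12.8% ± 2.7 to 20.9% ± 1.4 of the family. tRNA:Ala-CGC-1-2 was at 28.4% ± 1.85 against 21.6% ± 4.0 of its family and tRNA:Val-AAC-2-2 at 63.1% ± 4.1 against 56.7% ± 2.4. In tRNA:Pro-TGG-1, tRNA:Pro-TGG-1-5 went from 13.3% ± 2.4 to 19.7% ± 0.20. The pair with introns exchanged shares as well: tRNA:Ile-TAT-1-1 held 79.4%, 77.0% and 77.7% in dsLacZ and 72.9%, 72.7% and 70.3% in the libraries labelled dsFib, and tRNA:Ile-TAT-1-2 the rest. The copies named for their shares were picked among those without overlap, so that they do not overlap is no result.

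**Figure D5:**
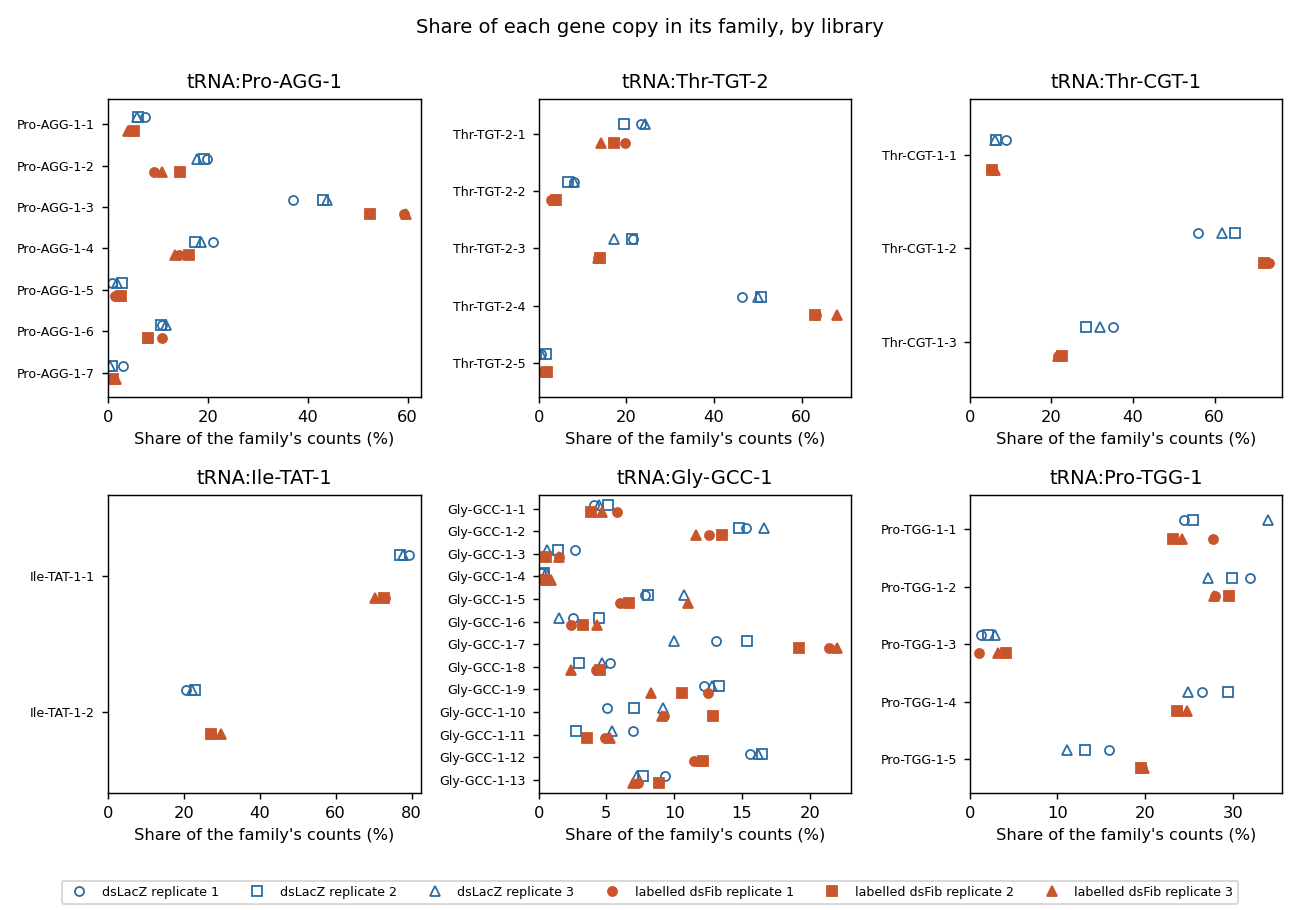
Share of each gene copy in the counts of its family, in percent, for 6 of the families described in the text, chosen after their values were seen, 1 symbol per library. Filled symbols (labelled dsFib) lie to the right of open ones (dsLacZ) for tRNA:Pro-AGG-1-3, tRNA:Thr-TGT-2-4, tRNA:Thr-CGT-1-2, tRNA:Ile-TAT-1-2, tRNA:Gly-GCC-1-7 and tRNA:Pro-TGG-1-5.

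None of the synthetases listed for these amino acids passed the test. All 10 listed genes were tested, with 0 called by edgeR, DESeq2 or limma-voom and 0 at an unadjusted p under 0.05. Their median log2 fold change of 0.02 covers cytosolic and mitochondrial enzymes together. IleRS, the cytosolic isoleucine synthetase, stood at 226.1, 244.4 and 244.7 CPM in dsLacZ and at 272.6, 261.3 and 282 CPM in those labelled dsFib, without overlap (log2 fold change 0.19, SE 0.09, edgeR adjusted p = 0.352). GlyRS, which loads glycine, was without overlap too, at 117.2, 113.1 and 121.1 CPM against 138.6, 129.6 and 125.2 CPM (0.16, SE 0.09, edgeR adjusted p = 0.411). Over all genes tested, the groups did not overlap for 23.2%. The threonine synthetase ThrRS was at 349.1 ± 24.9 and 332.3 ± 21.4 CPM, AlaRS at 609.7 ± 48.1 and 670.7 ± 48.4 CPM and ValRS at 27.2 ± 5.2 and 30.1 ± 2.3 CPM (SD, n = 3). GluProRS, which joins the glutamate and proline synthetases in 1 protein, was at 56.4 ± 11.2 and 56.9 ± 9.7 CPM. The log2 fold changes of ThrRS, AlaRS, ValRS and GluProRS were -0.07, 0.14, 0.14 and 0.01 in that order. The mitochondrial enzymes AlaRS-m, ValRS-m, IleRS-m and ProRS-m, which load tRNAs of the mitochondria, had log2 fold changes of -0.07, -0.33, -0.12 and 0.03.

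RNA polymerase III and its factors gave a like picture, with 0 of 12 tested genes of 13 listed called by edgeR, DESeq2 or limma-voom and a median of 0.04. In edgeR, 1 had an unadjusted p under 0.05, where 7.67% of all genes were higher at that p and 8.26% lower. Maf1, the repressor of this polymerase, stood at 46.4, 36.3 and 42.3 CPM in dsLacZ and at 48.1, 52.0 and 53.6 CPM in those labelled dsFib (log2 fold change 0.30, SE 0.11, edgeR adjusted p = 0.254). Trf, the TBP-related factor that flies use at tRNA promoters, had a log2 fold change of 0.31 (SE 0.17, edgeR adjusted p = 0.414). CG12267, named as a subunit by its RefSeq synonym, had 0.53 (SE 0.35).

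Among 20 listed genes of tRNA processing and modification, 19 were tested and 0 called by edgeR or limma-voom. At an unadjusted p under 0.05 in edgeR, 2 of them were higher and 2 lower, where 7.67% of all genes were higher and 8.26% lower. The median log2 fold change of the 19 was -0.08. RNaseZ, the enzyme that cuts off the 3′ trailer of a tRNA precursor, came nearest, at 69.2, 73.2 and 71.7 CPM in dsLacZ and at 100.9, 93.4 and 105.6 CPM in those labelled dsFib. Its log2 fold change was 0.49 (SE 0.09, edgeR adjusted p = 0.0527), DESeq2 called it, and edgeR called it without dsLacZ replicate 2. Rpp30, a protein subunit of the RNase P that removes the 5′ leader, lay on the other side, at 13.7, 17.8 and 14.99 CPM against 7.96, 12.8 and 9.69 CPM (-0.60, SE 0.21, edgeR adjusted p = 0.214). Archease, which works with the tRNA ligase RtcB in splicing, was at 8.89 ± 1.87 and 15.8 ± 4.3 CPM (0.82, SE 0.25, edgeR adjusted p = 0.175). Its groups overlapped, at 10.96, 8.39 and 7.32 CPM in dsLacZ against 19.11, 17.36 and 10.86 CPM in those labelled dsFib. RtcB itself was at 51.0 ± 7.5 and 54.4 ± 3.7 CPM (0.09, SE 0.12). The cytosine methyltransferase Nsun2 was at 623.1, 726.6 and 613.8 CPM against 474.7, 515.4 and 556.7 CPM, lower in each library labelled dsFib (-0.34, SE 0.12, edgeR adjusted p = 0.209).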

How the data were processed

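Total RNA of S2R+ cells was measured in 6 TGIRT-seq libraries, 3 per group. Per the submitters' processing notes, cutadapt 3.4, Bowtie2, STAR and build dm6 were used. CoCo, whose settings the sources used here do not give, appears as counter in the names of the tables. The authors deposited 3 values for each gene, per the file headers: TPM, CPM and an estimated count. Estimated counts deposited by the authors were summed by anticodon or by family and rounded. Gene positions came from the Ensembl annotation of BDGP6 (coordinates of dm6), in which all 99 genes were found.

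Each table (genes, families summed, anticodons summed) was filtered with filterByExpr, scaled by TMM and tested with edgeR 4.0.16 (R 4.3.3, limma 3.58.1) with group as the single term. Adjustment ran over the whole table, with a threshold of 0.05. SE is the log2 fold change divided by the root of F. Levels are mean TMM-scaled CPM; the deposited CPM was used to check the counts and the deposited TPM to order anticodons. Shares were tested with two-sided exact permutation tests. Alternatives were DESeq2 1.42.0, limma-voom, other scalings, no filter, a mean count of at least 10, a replicate block and leaving out each library; the scripts were tested on simulated data. Genes named are each anticodon's most abundant copy, the 5 smallest p in each direction, all synthetases and the 3 smallest p of the other lists; copies named for their shares, tRNA:Val-CAC-2-4, osp, Rpp30 and RtcB were chosen after their values were seen. The members and lists were chosen with earlier results of these data known. Depth was 11695250 to 15172052 counts per library, and Wilson intervals cover counting error only, since reads carry no stated molecular identifiers. Any 2 libraries differed over the members by more than sampling noise (chi-square per degree of freedom of at least 23.8).

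No pairing by replicate number was seen: deviations from the group means correlated at -0.04, -0.21 and -0.11 for numbers 1, 2 and 3. With 3 libraries per group, whose deviations sum to 0, these correlations cannot exclude that libraries of 1 number were prepared together.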

Additional observations from a re-analysis of the deposited data

How the results depend on the processing

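Leaving out dsLacZ replicate 2 is the choice that moved the level results most. Over the 6 fits that leave out 1 library each, the number of genes called went from 0 to 28, of families from 0 to 7, of anticodons from 0 to 5 and of processing genes from 0 to 1, in each case highest without dsLacZ replicate 2; the 28, 7 and 5 of those fits stand beside 0 with all libraries. With no filter on low counts, edgeR called 5 genes (2.12% of all genes), 1 family (tRNA:Thr-AGT-1; 3.45% of all features), 1 anticodon (Thr-AGT; 3.85%) and 2 processing genes (Archease and RNaseZ). DESeq2 called 1 gene (tRNA:Thr-TGT-2-2) and 1 processing gene (RNaseZ). Counts under the other scalings, limma-voom, a mean count of at least 10 and the replicate block were the same. The cause was not tested.

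Fold changes near 0 changed sign when 1 library was left out, as these ranges of the log2 fold change show. For anticodons they were -0.007 to 0.61 (Ala-AGC), -0.48 to 0.18 (Ala-CGC), -0.18 to 0.33 (Ala-TGC), -0.13 to 0.38 (Gly-GCC), -0.13 to 0.42 (Gly-TCC), -0.30 to 0.31 (Ile-TAT), -0.23 to 0.39 (Pro-AGG), -0.076 to 0.47 (Pro-CGG), -0.16 to 0.41 (Pro-TGG), -0.13 to 0.58 (Thr-CGT), -0.10 to 0.59 (Thr-TGT), -0.35 to 0.28 (Val-AAC), -0.10 to 0.49 (Val-CAC) and -0.37 to 0.30 (Val-TAC). For genes they were -0.31 to 0.33 (tRNA:Ala-CGC-1-1), -0.17 to 0.33 (tRNA:Ala-TGC-2-1), -0.037 to 0.47 (tRNA:Gly-GCC-2-1), -0.23 to 0.29 (tRNA:Gly-TCC-2-2), -0.057 to 0.66 (tRNA:Ile-AAT-1-2), -0.39 to 0.17 (tRNA:Ile-TAT-1-1), -0.021 to 0.51 (tRNA:Pro-CGG-2-2), -0.22 to 0.34 (tRNA:Pro-TGG-1-2), -0.49 to 0.078 (tRNA:Val-AAC-2-2), -0.19 to 0.37 (tRNA:Val-CAC-2-6), -0.35 to 0.28 (tRNA:Val-TAC-1-2), -0.19 to 0.054 (AlaRS-m) and -0.14 to 0.15 (GluProRS). Other signs changed as well: limma-voom gave 0.033 for Ala-TGC, 0.029 for Pro-AGG, 0.046 for tRNA:Ala-TGC-2-1 and 0.017 for tRNA:Pro-TGG-1-2. For tRNA:Ala-TGC-2-1, DESeq2 and its size factors gave 0.004 and no filter 0.009. Total counts alone gave -0.042 for GluProRS and -0.005 for ProRS-m.

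The replicate numbers share no stated origin, and a replicate block changed the sign of 4 values near 0, to 0.044 (Ala-TGC), 0.042 (Pro-AGG), 0.055 (tRNA:Ala-TGC-2-1) and 0.028 (tRNA:Pro-TGG-1-2). It called 0 genes, 0 families and 0 anticodons, and Fib had an edgeR adjusted p of 0.0602 with it (log2 fold change 2.21). In the paired differences all 3 pairs agreed in sign for 13 of the 16 isoacceptor shares. For the 11 shares without overlap between the groups, any pairing must agree in sign, so this count is no separate check.

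The shares of all 6 amino acids in nuclear tRNA kept their direction in each of the 6 fits that leave out 1 library. So did the shares of all 16 anticodons within their amino acid. The differences were the same in the deposited TPM, whose ratio to CPM was the same for all members, so it was no separate check. The difference for Thr-AGT among the Thr counts ranged from 4.31 to 8.28 points. No setting can bring an exact test of 3 against 3 libraries below 0.1. Of the 99 genes 98 passed the filter, yet leaving it out gained the calls given above. The lowest count of an anticodon in a library was 1393.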
